A study of Homo sapiens with 40 samples.

Results

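The genes described here encode the cytosolic ribosomal proteins, the protein part of the large and small ribosomal subunits. They were chosen by symbol: RPL or RPS followed by a number and an optional letter or L suffix, together with RPLP0, RPLP1, RPLP2 and RPSA. Pseudogenes, antisense entries, RPS6 kinases, and paralogues with a further digit in the symbol were left out. The rule found 73 of the 20046 genes named on the array, 47 of the large subunit and 26 of the small subunit. A further 9 symbols that fit the rule, RPLP0 and RPSA among them, were not analysed here.

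Transcript levels were read on 40 single-colour Illumina bead arrays. The cells were GRANTA519, JEKO1, MAVER1 and REC1, human lines established from the B cell cancer mantle cell lymphoma. Each line was exposed to OTX015, an inhibitor of the BET bromodomain proteins (readers of acetylated histones), or to its vehicle DMSO, and was sampled at 2, 4, 8, 12 and 24 h. With 1 array per condition of a line, each of the 10 groups held 4 arrays and the lines served as replicates. No source used here gives the OTX015 dose or says if each time had its own culture.

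A ribosome holds 1 copy of nearly every ribosomal protein beside its ribosomal RNA, and cells keep the supply of these proteins in balance. Ribosomal protein transcripts are among the most abundant in growing cells. Most carry a run of pyrimidines at their very start, the terminal oligopyrimidine (TOP) sequence, through which the kinase mTOR regulates their translation. The transcription factor MYC, whose gene is a well-known target of BET proteins, drives ribosome production in lymphoma cells. Some free ribosomal proteins, RPL5 and RPL11 foremost, bind MDM2, a ubiquitin ligase, when ribosome assembly is disturbed.

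The promoters of the 4 members that fell most under OTX015, and of the member that rose most, are shown because their changes carry the results below. Sequences and positions come from RefSeq (GRCh38.p14) and cover the 100 bases before the annotated start, 5′ to 3′ on the strand of the gene. Capitals mark CCGGAA or its reverse TTCCGG, the core bound by ETS family factors such as GABPA, or CACGTG, the E-box bound by MYC and MAX. The windows are chrX:101390911-101391010 on the plus strand for RPL36A, chr3:51995896-51995995 on the minus strand for RPL29, chr2:3575160-3575259 on the plus strand for RPS7, chr20:62387003-62387102 on the plus strand for RPS21, and chr19:8321396-8321495 on the plus strand for RPS28.
RPL36A: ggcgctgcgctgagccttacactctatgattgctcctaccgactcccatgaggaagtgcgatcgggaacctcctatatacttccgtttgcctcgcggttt
RPL29: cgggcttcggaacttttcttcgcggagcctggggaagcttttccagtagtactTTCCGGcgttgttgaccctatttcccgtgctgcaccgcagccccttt
RPS7: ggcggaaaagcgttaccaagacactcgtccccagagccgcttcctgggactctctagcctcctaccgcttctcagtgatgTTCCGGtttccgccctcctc
RPS21: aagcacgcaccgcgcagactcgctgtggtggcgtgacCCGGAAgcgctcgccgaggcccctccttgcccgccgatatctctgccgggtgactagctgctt
RPS28: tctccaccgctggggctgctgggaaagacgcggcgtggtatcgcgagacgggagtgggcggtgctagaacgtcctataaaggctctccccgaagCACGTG

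Of the 73 members, 61 matched a promoter in the RefSeq table. CCGGAA or TTCCGG stood within 250 bases before the start of 29 of these 61 (47.5%), against 19.3% of 15841 promoters of protein-coding genes. The E-box CACGTG, which reads the same on both strands, stood in 3 of 61 (4.92%: RPL13A, RPL19 and RPS28), against 7.84% of all promoters. GGGCGG or CCGCCC, the GC box, was present in 57.4% of the members' promoters and in 56% of all, and TATAAA or TTTATA, the TATA box, in 8.2% and 9.24%. A C followed by 4 pyrimidines at the annotated start itself, as in a TOP transcript, was found for 40 of 61 members (65.6%), RPL36A, RPL29 and RPS21 among them, and for 4.6% of all promoters. It was not found at the annotated starts of RPS7 and RPS28. Each match is a match of letters in these windows.

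An array detected 36.34% to 49.19% of its 47231 probes, at a median signal of 95.57 to 125.6 intensity units. A gene is represented by its brightest probe, and a probe's mean log2 signal over the 40 arrays is called its brightness. Brightness depends on the probe as well as on the transcript, so it does not rank genes by abundance. Of the 13955 genes tested, 71 were members. RPL10, a large-subunit protein, had 2 probes, the better of them detected on 3 arrays, and RPL3L, the muscle paralogue of RPL3, had 1 probe detected on 1 array, so neither was tested. Of the 71, 70 were detected on all 40 arrays. The exception, RPL10L, a retrogene copy of RPL10 used in the testis, had a brightness of 4.90 and was detected on 6 arrays with DMSO and 9 with OTX015. The B cell genes CD79A, CD79B and BLK and the mantle cell lymphoma gene SOX11 were detected on all 40 arrays. CCND1, the cyclin D1 gene, was detected on all 10 arrays of GRANTA519 and of MAVER1, on 5 of REC1 and on 0 of JEKO1.

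Most ribosomal protein transcripts moved little under OTX015. Over all times, 9 of 71 members passed an adjusted p of 0.05 (limma on the 4 line means, Benjamini-Hochberg over 13955 genes), 4 higher and 5 lower. That is 12.7% of the members, against 28.4% of all genes tested, of which 14.3% were higher and 14.2% lower. RPL36A, RPL29, RPS7, RPS21 and RPL28 fell, and RPS28, RPL13, RPS23 and RPL14 rose. The median change of the members was -0.0072 log2, beside 0.0055 for all genes, and the SD of their changes was 0.166, beside 0.339. Changes within 0.1 log2 of zero were found for 48 members (67.6%) and for 38% of all genes. The count of 9 became 5 without GRANTA519, 7 without JEKO1, 4 without MAVER1 and 5 without REC1, while 17.7%, 23.6%, 17.4% and 21.9% of all genes passed. With the OTX015 and DMSO arrays taken as unpaired groups it was 0, as 2 of 13955 genes then passed.

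**Figure D1:**
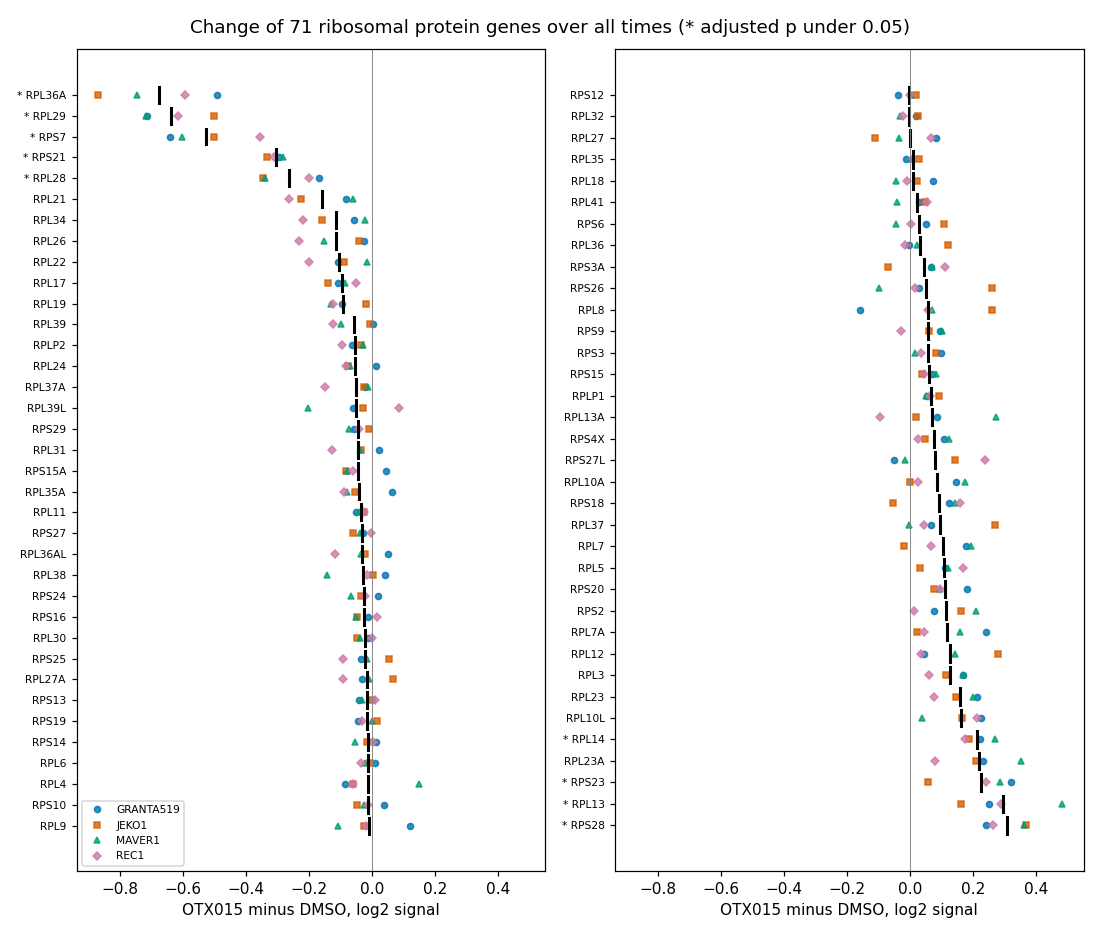
Change in log2 signal, OTX015 minus DMSO, of the 71 tested ribosomal protein genes, sorted by their mean. Points are the 4 cell lines, each a mean of 5 times, and black bars are the mean of the lines. Most genes lie within 0.1 of zero, and the 9 genes with an asterisk (adjusted p under 0.05) stand at both ends, from -0.67 for RPL36A to 0.31 for RPS28.

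Both subunits showed this pattern. Of 45 tested large-subunit genes 2 rose and 3 fell, with a median change of -0.012, and of 26 small-subunit genes 2 rose and 2 fell, with a median of 0.012. Member probes held between 7.31% and 8.49% (median 7.96%) of the raw signal of the probes that represent genes on DMSO arrays, and between 7.28% and 8.94% (median 8.07%) on OTX015 arrays, so these ranges overlap. Overlap does not use the pairing. Pair by pair, the share was higher with OTX015 in each line at 4 h, and the lines did not all go the same way at any other time. No difference in this share was tested. The median normalized level of the members lay between 12.83 and 13.06 on DMSO arrays and between 12.90 and 13.03 on OTX015 arrays. All arrays were given the same signal distribution, so a change common to all transcripts, or in RNA per cell, cannot be told apart from no change. A lower level may likewise stand for less RNA per cell or for fewer cells that express the gene.

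All 9 members that passed had a brightness under 12. Among the 47 members whose representing probe had a brightness of 12 or over none passed the test, 0 by limma after adjustment, and 4.71% of the 191 genes in that range passed. Changes of these 47 ran from -0.095 (RPL17) to 0.126 (RPL3), and their 95% confidence intervals, which reached 0.135 to 0.191 to either side, lay between -0.233 and 0.287. At a brightness of 10 to 12, 2 of 12 members passed, against 26.9% of all genes there. Between 8 and 10 it was 4 of 7, against 42.9%, and under 8 it was 3 of 5, against 25.2%. The brightest probe of an array reached between 16393 and 22105 intensity units, and the SD of changes of all genes was 0.125 at a brightness of 12 or over and 0.372 between 8 and 10. The part of probe brightness in the members' small changes was not tested.

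**Figure D2:**
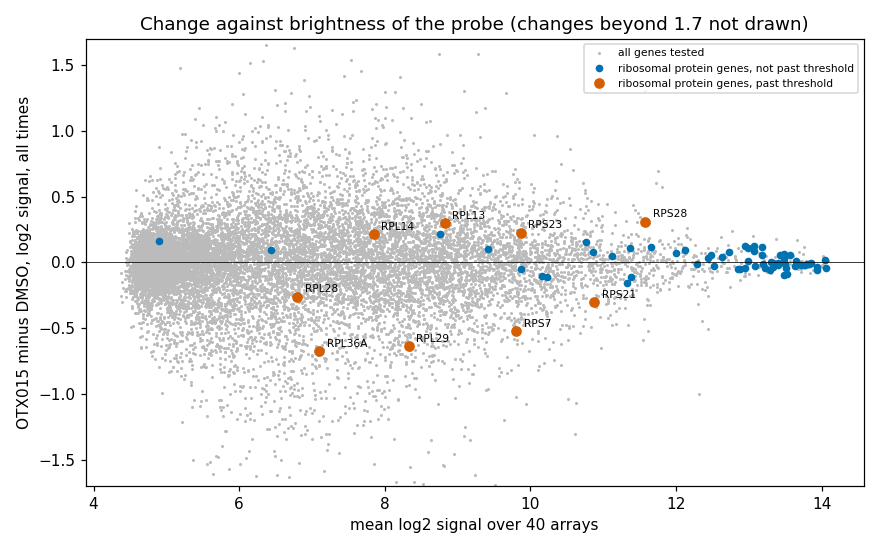
Change over all times (log2 signal, OTX015 minus DMSO) against the mean log2 signal of the representing probe over 40 arrays, for all tested genes (grey) and the ribosomal protein genes (blue, or orange and named where past the threshold). The 47 members at 12 or over lie between -0.095 and 0.126, and the 9 that passed have signals below 12.

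RPL36A, an X-linked gene of the large subunit, fell most. Its log2 signal lay between 6.76 and 8.01 on the 20 DMSO arrays (median 7.40) and between 5.67 and 7.78 on the OTX015 arrays (median 6.73). The ranges overlap between lines, and the OTX015 array was the lower in all 20 pairs of the same line and time. The change was -0.67 ± 0.17 (SD, n = 4 lines), a 1.60-fold fall with an adjusted p of 0.00198 (limma). It was smaller, and still past the threshold, without background correction (-0.40), with the authors' series matrix values (-0.38) and with the mean of its probes (-0.37). It was -0.49 in GRANTA519, -0.87 in JEKO1, -0.75 in MAVER1 and -0.59 in REC1.

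RPL29, a large-subunit protein that also binds heparin, lay between 7.86 and 9.31 in DMSO (median 8.75) and between 6.83 and 8.99 in OTX015 (median 7.96). It was lower with OTX015 in 19 of 20 pairs. The change of -0.64 ± 0.10 (SD, n = 4 lines) was a 1.55-fold fall with an adjusted p of 0.00138 (limma). The lines were close together, from -0.72 in MAVER1 to -0.50 in JEKO1.

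RPS7, a small-subunit protein that can bind MDM2, lay between 8.75 and 11.15 in DMSO (median 10.11) and between 8.47 and 10.88 in OTX015 (median 9.40). These wide ranges come with large differences between lines, and 19 of 20 pairs were lower with OTX015. The change was -0.53 ± 0.13 (SD, n = 4 lines), a 1.44-fold fall with an adjusted p of 0.00289 (limma), from -0.64 in GRANTA519 to -0.36 in REC1.

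RPS21, a small-subunit protein, lay between 10.28 and 11.72 in DMSO (median 10.84) and between 10.06 and 11.61 in OTX015 (median 10.63). Its change of -0.30 ± 0.02 (SD, n = 4 lines; adjusted p = 0.00933, limma) was nearly the same in each line, from -0.33 in JEKO1 to -0.28 in MAVER1, and 19 of 20 pairs were lower. RPL28, of the large subunit, lay between 6.08 and 7.63 in DMSO (median 6.96) and between 5.37 and 7.60 in OTX015 (median 6.73), with a change of -0.26 ± 0.09 (SD, n = 4 lines; adjusted p = 0.0240, limma) and 18 of 20 pairs lower. Its call was lost when any 1 line was left out, at changes of -0.29 to -0.24. Left uncorrected for background its change was -0.15, and the series matrix of the authors gave -0.14.

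Among the members that rose, RPS28, a small-subunit protein, lay between 10.87 and 11.78 in DMSO (median 11.46) and between 11.09 and 12.15 in OTX015 (median 11.80). The change of 0.31 ± 0.07 (SD, n = 4 lines; adjusted p = 0.0110, limma) was a 1.24-fold rise, with 18 of 20 pairs higher. Without MAVER1 it was 0.29 (adjusted p = 0.0522, limma). Among the 61 members with a promoter, only RPL13A and RPL19 share the E-box of its window, and neither passed the test.

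RPL13, of the large subunit, lay between 7.90 and 9.41 in DMSO (median 8.74) and between 8.20 and 9.56 in OTX015 (median 9.09), a rise of 0.30 ± 0.14 (SD, n = 4 lines; adjusted p = 0.0237, limma). RPS23, which lies at the decoding centre of the small subunit, lay between 9.24 and 10.66 in DMSO (median 9.67) and between 9.56 and 10.89 in OTX015 (median 9.93), a rise of 0.23 ± 0.12 (SD, n = 4 lines; adjusted p = 0.0498, limma). Each was higher in 18 of 20 pairs, and each lost its call without GRANTA519, without MAVER1 or without REC1, at 0.23 to 0.31 for RPL13 and 0.19 to 0.22 for RPS23. RPL14, of the large subunit, lay between 6.22 and 8.68 in DMSO (median 7.88) and between 6.63 and 8.90 in OTX015 (median 8.10). Its rise of 0.21 ± 0.04 (SD, n = 4 lines; adjusted p = 0.0352, limma) was present in 16 of 20 pairs and lost its call without any 1 line, at 0.19 to 0.23. With median scaling in place of quantile normalization RPL13, RPS23 and RPL14 were not called (changes of 0.25, 0.18 and 0.16), so the split became 1 higher and 5 lower.

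The 62 other members had changes between -0.157 and 0.217. The nearest to the threshold were RPL23A at 0.22 ± 0.11 (SD, n = 4 lines; adjusted p = 0.0539, limma) and RPL23 at 0.16 ± 0.06 (SD, n = 4 lines; adjusted p = 0.0985, limma), both of the large subunit. Of the MDM2-binding proteins other than RPS7, RPL5 differed by 0.11 (adjusted p = 0.231), RPL11 by -0.035 (adjusted p = 0.692) and RPL23 as above. MDM2 itself differed by -0.15 (adjusted p = 0.303). RPS6, the substrate of the S6 kinases, differed by 0.029 (adjusted p = 0.769), and RPS19, the gene most often mutated in Diamond-Blackfan anaemia, by -0.014 (adjusted p = 0.883). RPL13A, often used as a reference gene for PCR, differed by 0.070 (adjusted p = 0.549). These p-values are from limma over 4 lines, and a p above the threshold does not show that a level stayed the same.

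Paralogues gave no pair in which both passed. RPL36AL, the autosomal copy of RPL36A, differed by -0.030 (adjusted p = 0.759, limma) beside the fall of RPL36A. RPS27 and its paralogue RPS27L differed by -0.032 and 0.078, RPL39 and RPL39L by -0.055 and -0.050, and RPL10L by 0.16. RPL22 differed by -0.10 and its paralogue RPL22L1 by -0.28 ± 0.34 (SD, n = 4 lines), RPL26 and RPL26L1 by -0.11 and -0.16, and RPL7 and RPL7L1 by 0.10 and -0.036. No difference between the members of a pair was tested. Processed pseudogenes of ribosomal protein genes are common, and which probes also bind their transcripts was not tested.

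The falls of RPL29, RPL36A and RPS7 were deeper at 24 h than at 2 h. In the model with line and time, the change at 24 h differed from that at 2 h for 3 of 71 members (11.2% of all genes), RPL29 by -0.95 (SE 0.157, adjusted p = 0.000932, limma), RPL36A by -0.82 (SE 0.200, adjusted p = 0.0137) and RPS7 by -0.615 (SE 0.147, adjusted p = 0.0123). An F test of any difference between times gave these 3 and RPL34 (4 of 71, against 11% of all genes). Without GRANTA519 or without MAVER1 the contrast of 24 h with 2 h was called for RPL29 alone (-0.80 and -0.93), and without REC1 for RPL29 and RPS7. For RPL36A this contrast was -0.46 without background correction, -0.43 with the authors' series matrix values, and -0.37 with the mean of its probes, which was not past the threshold (adjusted p = 0.194, limma). RPL36A went from -0.34 at 2 h to -1.16 at 24 h, RPL29 from -0.25 to -1.20 and RPS7 from -0.27 to -0.89, and none of the 3 passed at 2 or 4 h.

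At 24 h, RPL29 stood at 9.04 with DMSO and 7.63 with OTX015 in GRANTA519, at 8.70 and 7.88 in JEKO1, at 8.08 and 6.83 in MAVER1, and at 9.17 and 7.84 in REC1. The OTX015 level of each line was thus below the DMSO level of every line. The change at 24 h was -1.20 ± 0.26 (SD, n = 4 lines; adjusted p = 3.78e-07, limma). P-values of single times, here and below, come from a fit of all times together with no term for line. They rest on a spread pooled over lines and times rather than on the SD beside them. Repeated times of a line were taken as independent there, so these p-values may be too small. RPL36A at 24 h stood at 7.05 and 5.92 in GRANTA519, 6.91 and 5.87 in JEKO1, 7.96 and 6.75 in MAVER1, and 7.71 and 6.45 in REC1, which also do not overlap. Its change was -1.16 ± 0.10 (SD, n = 4 lines; adjusted p = 1.41e-05, limma). RPS7 at 24 h stood at 10.59 and 9.33 in GRANTA519, 9.17 and 8.55 in JEKO1, 9.73 and 8.75 in MAVER1, and 11.01 and 10.32 in REC1. Here the OTX015 levels of REC1 and GRANTA519 were above the DMSO level of JEKO1, while each line was lower than its own control, by -0.89 ± 0.29 (SD, n = 4 lines; adjusted p = 1.08e-05, limma).

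**Figure D3:**
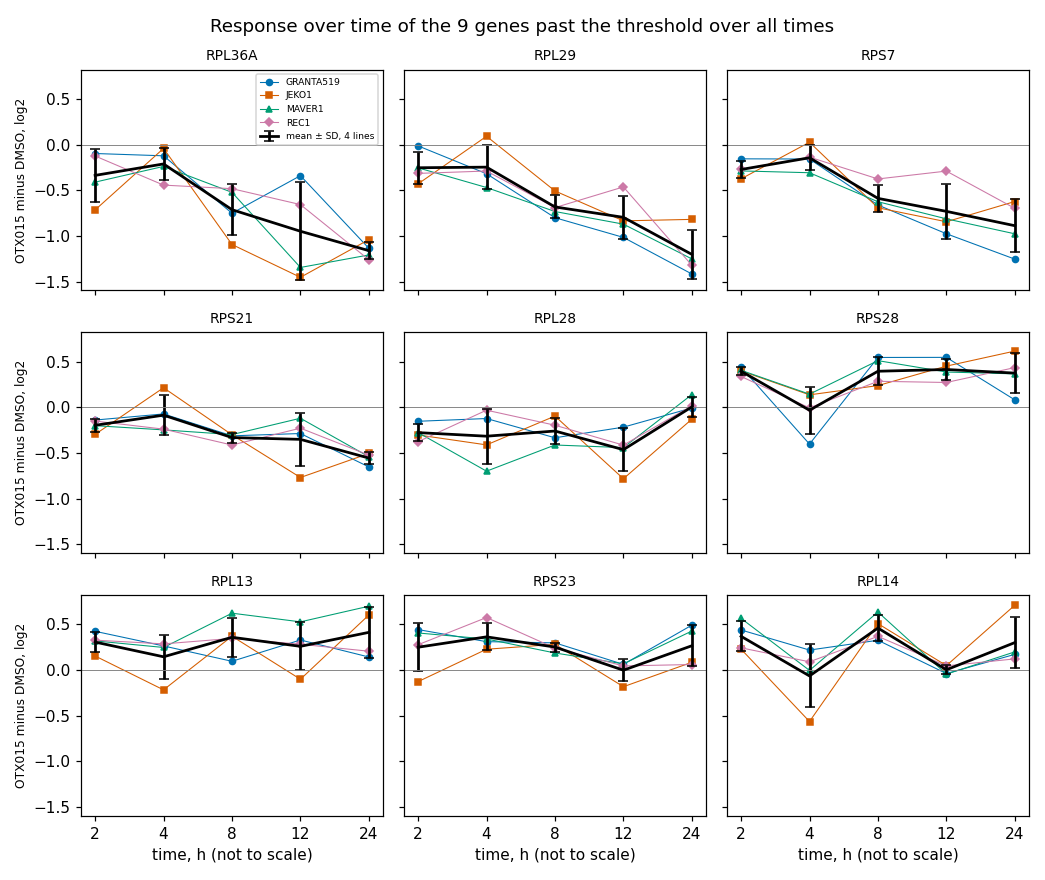
Change in log2 signal (OTX015 minus DMSO of the same line and time) at 2, 4, 8, 12 and 24 h for the 9 ribosomal protein genes past the threshold over all times. Coloured lines are cell lines, 1 pair of arrays a point, and the black line is their mean with SD (n = 4). RPL36A, RPL29 and RPS7 reach -1.16, -1.20 and -0.89 at 24 h, and RPL28 stands at 0.004 there.

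Taken time by time, 15 of 71 members passed at 1 or more times, against 42.5% of all genes, and 8 did without MAVER1 and 9 without REC1. At 2 h RPL23, RPL5 and RPS28 rose and none fell (3 of 71, against 9.65% of all genes, 4.88% higher and 4.77% lower). RPL23 changed by 0.41 (adjusted p = 0.0281, limma), RPL5 by 0.32 (adjusted p = 0.0268) and RPS28 by 0.39 (adjusted p = 0.0172). RPS28 was higher at 2 h in each line, at 10.87 with DMSO and 11.31 with OTX015 in GRANTA519, 11.44 and 11.83 in JEKO1, 11.29 and 11.69 in MAVER1, and 11.48 and 11.82 in REC1.

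At 4 h only RPS23 rose and only RPL28 fell among the members (2 of 71, against 19.7% of all genes, 9.75% higher and 9.91% lower), and RPS28 stood at -0.03. At 8 h RPL13, RPL14, RPL23A and RPS28 rose, and RPL22, RPL29, RPL36A, RPS21 and RPS7 fell (9 of 71, against 21.3%, 10.8% higher and 10.5% lower). RPL22, a large-subunit protein needed for T cell development in mice, fell by 0.39 at 8 h (adjusted p = 0.00603, limma) and stood at 0.09 at 24 h. At 12 h RPS28 rose and RPL28, RPL29, RPL36A, RPS21 and RPS7 fell (6 of 71, against 22.1%, 10.4% higher and 11.7% lower). At 24 h RPL13 and RPS28 rose and RPL21, RPL29, RPL34, RPL36A, RPS21 and RPS7 fell (8 of 71, against 24.2%, 13% higher and 11.2% lower). Among these, RPL34 fell by 0.46 (adjusted p = 0.00376, limma) and RPL21 by 0.32 (adjusted p = 0.0220), and RPS21 by 0.56 (adjusted p = 0.000343). RPL28 stood at 0.004 at 24 h after -0.46 at 12 h. Its DMSO level dropped by 0.44 on the log2 scale from 2 h to 24 h (adjusted p = 0.00748, limma), and it was the only member past the threshold in that contrast of DMSO arrays (1 of 71, against 7.34% of all genes). That call was lost without GRANTA519, without MAVER1 or without REC1.

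Within single lines the p-value rests on the spread among the 5 times of a line, pooled over the 4 lines, rather than among cultures. RPL29 fell in all 4 lines. RPS7 and RPL36A fell in 3 lines each, RPS7 not passing in REC1 and RPL36A not in GRANTA519. In GRANTA519 RPS23 rose and RPL29 and RPS7 fell (3 of 71, against 23.8% of all genes). In JEKO1 RPL12, RPL8 and RPS28 rose and RPL28, RPL29, RPL36A, RPS21 and RPS7 fell (8 of 71, against 23.9%). On the JEKO1 DMSO array at 4 h RPL8 stood at 12.45, against 12.72 to 12.84 at the other times. RPL12 stood at 12.58 there, against 12.85 to 13.00. The pair with that array was also the only pair not lower for RPL29, RPS7 and RPS21. The part of that array in these calls was not tested. In MAVER1 RPL13, RPL13A, RPL23A, RPS2, RPS23 and RPS28 rose and RPL28, RPL29, RPL36A and RPS7 fell (10 of 71, against 21.5%). In REC1 RPL29 and RPL36A fell and none rose (2 of 71, against 15.2%). The test of a difference between lines itself gave 0 of 71 members by limma, with 2 at an unadjusted p under 0.05, against 9.36% of all genes. The lists of single lines are therefore not shown to differ.

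In most genes with several probes the changes lay within 0.3 log2 of each other, a cut above the SD of the members' changes (0.166). Of the 71 members, 34 had 2 or more tested probes. In 7 of these the changes of the probes differed by more than 0.3 log2: RPL13, RPL36A, RPS15, RPS24, RPS26, RPS27 and RPS29. In all, 18 of 117 member probes passed over all times, 6 higher and 12 lower, against 21.1% of the 27845 probes tested, and 11 did without MAVER1. The 2 probes of RPL29 gave -0.64 and -0.57, with a correlation of 0.959 over the 20 differences, and those of RPS7 gave -0.53 and -0.65, with 0.966. These were the highest. In the other genes within 0.3, correlations between probes ran from -0.547 (RPS15A) to 0.887 (RPS3A), so a like mean change did not always come with like differences. These correlations describe pairs of probes read on the same arrays.

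The probes of RPS29, a zinc-binding protein of the small subunit, disagreed most. Probes with a brightness of 14.06, 13.78 and 13.00 gave -0.044, -0.039 and -0.096, and none passed. A further probe, with a brightness of 8.26, lay between 6.82 and 9.14 in DMSO (median 7.93) and between 7.14 and 9.68 in OTX015 (median 8.92). It was higher in 20 of 20 pairs, by 0.78 ± 0.29 (SD, n = 4 lines; adjusted p = 0.00307, limma over probes), a 1.71-fold rise. RPS26, of the small subunit, gave 0.051 on its bright probe (11.12). On a dim probe (6.17, detected on 36 arrays), which lay between 5.31 and 7.51 in DMSO (median 6.71) and between 4.67 and 7.02 in OTX015 (median 5.77), it gave -0.77 ± 0.21 (SD, n = 4 lines; adjusted p = 0.00157, limma over probes). Averaged over both probes RPS26 would be called lower, at -0.36.

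RPS24, of the small subunit, gave -0.026 at a brightness of 13.08 and -0.49 ± 0.15 (SD, n = 4 lines; adjusted p = 0.00443, limma over probes) at 9.89. RPS15, of the small subunit, gave 0.058 and 0.11 at 13.42 and 13.08, and -0.39 ± 0.08 (SD, n = 4 lines; adjusted p = 0.00608, limma over probes) at 8.01. The call on RPL13 also rests on the probe: the one that represents it rose by 0.30 and the other (7.04) fell by 0.36 (adjusted p = 0.0139, limma over probes), with a correlation of -0.35 over the 20 differences. With the mean of its probes RPL13 stood at -0.03. The other probe of RPL36A (4.76) was detected on 13 arrays and gave -0.075 (adjusted p = 0.706, limma over probes). The third probe of RPS27, a zinc-binding small-subunit protein, gave 0.21 (adjusted p = 0.0829), beside -0.032 and -0.096. Of the 46 probes that did not represent their gene 10 passed, where 21.1% of all 27845 probes tested passed. Of these 10, 8 were among the 21 with a brightness below 10, a range whose share over all probes is not given here. The other 2 were brighter: a probe of RPL12 (12.35), a large-subunit protein, rose by 0.27 (adjusted p = 0.0218, limma over probes), and a probe of RPLP1 (10.56), a protein of the large-subunit stalk, rose by 0.29 (adjusted p = 0.0178). The probes that represent these genes gave 0.12 and 0.065, and neither passed. Which transcript forms these probes read was not tested.

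**Figure D4:**
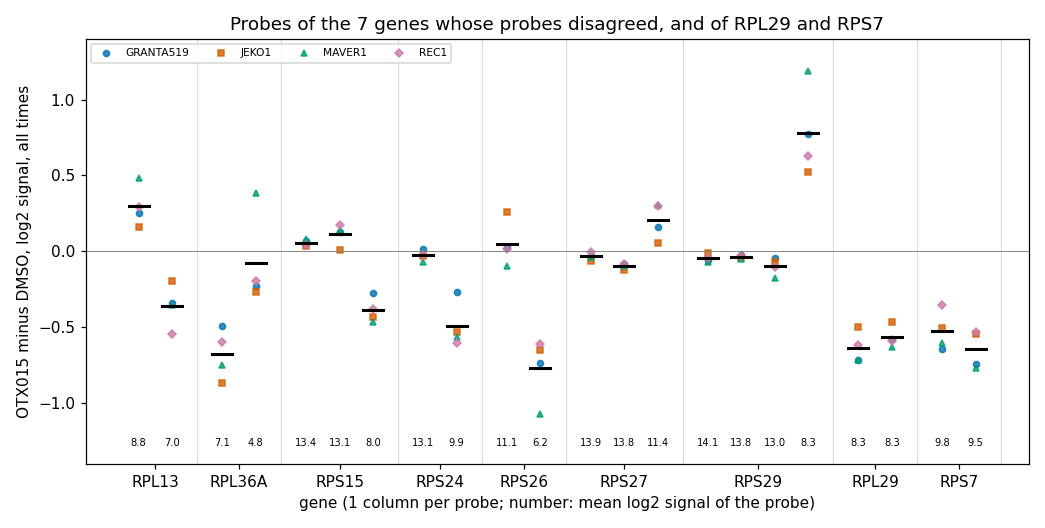
Change over all times (log2 signal, OTX015 minus DMSO) of each tested probe of the 7 ribosomal protein genes whose probes differed by more than 0.3, and of RPL29 and RPS7. Points are the 4 lines, bars their mean, and the number under each column is the brightness of the probe. The dimmest probe of RPS29 stands at 0.78 and that of RPS26 at -0.77, away from the brighter probes of the same gene, while both probes of RPL29 and of RPS7 lie between -0.65 and -0.53.

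Without inhibitor the share of members whose level differed between lines was near that of all genes. An F test of the 20 DMSO arrays, in which the 5 times of a line stand in for replicates, passed for 56 of 71 members (78.9%), against 72.5% of all genes. The distance between the highest and lowest line mean had a median of 0.440 log2 over the members and 0.695 over all genes. It was over 1 for 11 members and under 0.3 for 17.

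RPL14 had the widest range, 3.96-fold: it stood at 8.58 ± 0.12 in GRANTA519, 8.01 ± 0.22 in REC1, 7.77 ± 0.20 in MAVER1 and 6.60 ± 0.37 in JEKO1 (SD over 5 times; adjusted p = 5.63e-09, limma). JEKO1 lay below the others beyond this spread, and MAVER1 and REC1 did not separate. RPS7 stood at 10.98 ± 0.12 in REC1, 10.55 ± 0.20 in GRANTA519, 9.63 ± 0.19 in MAVER1 and 9.12 ± 0.22 in JEKO1, a 3.62-fold range. RPS26, mutated in some patients with Diamond-Blackfan anaemia, stood at 11.71 ± 0.10 in GRANTA519, 11.47 ± 0.10 in REC1, 11.28 ± 0.14 in MAVER1 and 9.91 ± 0.33 in JEKO1, so that JEKO1 again was lowest. RPL26, of the large subunit, was highest in REC1, at 12.39 ± 0.18 against 10.85 to 11.38 in the others. RPL22 was lowest in GRANTA519, at 9.24 ± 0.14 against 10.25 to 10.75. RPS27L ran from 11.66 ± 0.15 in GRANTA519 to 10.18 ± 0.06 in REC1. At the other end, RPL27A (13.83 to 13.85) and RPS14 (13.49 to 13.52), the gene of the small subunit lost in the 5q- form of myelodysplasia, differed by 0.022 and 0.028 log2 between lines.

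**Figure D5:**
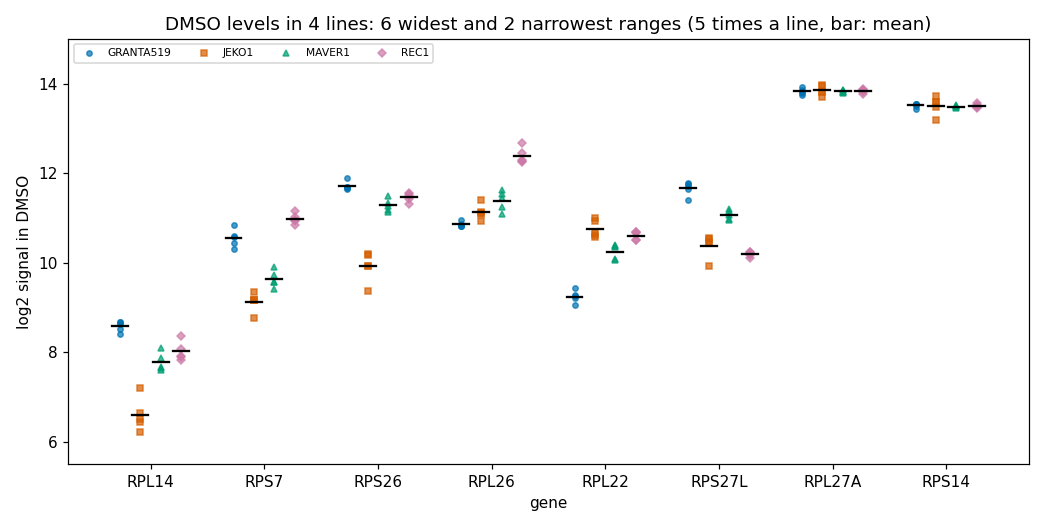
Log2 signal on the 20 DMSO arrays of 6 ribosomal protein genes with the widest range of line means and the 2 with the narrowest. Points are the 5 times of a line and bars their mean. JEKO1 is lowest for RPL14, RPS7 and RPS26, REC1 is highest for RPL26, and RPL27A and RPS14 lie at the same level in all lines within 0.03.

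Of the 5 members that fell, RPL36A, RPL29, RPS7 and RPS21 followed each other over the 20 differences and RPL28 did not. Among 7067 genes detected on all 40 arrays, the one most like RPL29 was RPS7, with a Pearson correlation of 0.910 over 20 differences of 4 lines and 5 times, followed by NME1, a nucleoside diphosphate kinase (0.899), and MRPL23, a mitochondrial ribosomal protein (0.898). Those most like RPS7 were NME1 (0.946), MRPL23 (0.930) and RPL29. RPL36A was most like LY86 (0.861), MAPK3 (0.857) and MRPL11 (0.856), and RPS21 was most like LSM3 (0.841), RPL34 (0.802) and TXN (0.792). Correlations among RPL36A, RPL29, RPS7 and RPS21 ran from 0.728 to 0.910, and those of RPL28 with these 4 from -0.303 to -0.116. RPL13 was most like RNU1-3 (0.868), a U1 small nuclear RNA gene, and RPL14 was most like RPL13P5 (0.824), an RPL13 pseudogene. Points of 1 line share that cell line, and all 20 share the course of time, so these are descriptions.

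Of 21 tested genes of ribosome assembly 9 fell and none rose over all times, where 14.2% of all genes fell. The median change of this list was -0.21, and the median brightness of its probes was 8.75. Of all genes with a brightness of 8 to 10, 42.9% passed in either direction. PPAN, whose yeast counterpart assembles the large subunit, changed by -0.85 ± 0.21 (SD, n = 4 lines; adjusted p = 0.00144, limma). RRS1, also a large-subunit assembly factor, fell by 0.84, NOB1, the nuclease that trims the small-subunit RNA, by 0.59, and LTV1, a small-subunit assembly factor, by 0.47. PPAN and RRS1 were lowest against DMSO at 2 h, at -1.10 and -1.27.

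Of 19 other tested genes with TOP transcripts, mostly translation factors, EEF1D rose by 0.28, and HNRNPA1 (-0.63) and EIF4B (-0.27) fell, with a median of 0.012. Of all genes tested 28.4% passed over all times, 14.3% higher and 14.2% lower. FAU, which encodes the small-subunit protein RPS30 fused to a ubiquitin-like protein, differed by -0.09 (adjusted p = 0.292, limma). MYC differed by -0.48 ± 0.50 (SD, n = 4 lines; adjusted p = 0.0864, limma), from -1.12 in GRANTA519 to 0.04 in JEKO1. All 5 tested B cell markers fell, and their summed log2 level lay between 44.8 and 49.4 on DMSO arrays and between 37.5 and 47.6 on OTX015 arrays. Of the T and NK cell markers 3 of 8 were tested and none passed (summed level 13.06 to 20.02 in DMSO, 13.09 to 19.33 in OTX015), and of the myeloid markers 4 of 8 were tested and none passed (18.8 to 21.1 in DMSO, 18.4 to 21.1 in OTX015). The part of these levels in the members' changes was not tested.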

How the data were processed

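The members and lists were chosen with earlier results of these data known. The deposited table holds 1 intensity per probe. Per the submitters' processing notes it came from GenomeStudio, with no version stated, and biotin-labelled cRNA was hybridised per the labels' protocols. The deposited series matrix, used as an alternative, holds log2 values of the same arrays (column medians 6.706 to 6.707) whose normalization no source used here states. For background correction the normal-exponential model was set at each array's density mode (88.9 to 112.2), an offset of 16 was added, and arrays were quantile normalized (limma 3.58.1, R 4.3.3). Detection meant a signal 2.33 SD above the mode (one-sided p of 0.01), and probes detected on at least 4 arrays were kept (27845). Probe names came from GEO's platform annotation (30113 probes with 1 symbol, 8 with several, 17110 with none), updated through RefSeq (30074 matched). OTX015 was compared with DMSO as 20 differences of the same line and time, since arrays of 1 cell line are paired (correlations of deviations 0.753 to 0.885). Fits used lmFit and eBayes with two-sided p and Benjamini-Hochberg adjustment, and were tested on simulated data. Named genes are members past the threshold, the largest changes, disagreeing probes, wide DMSO ranges, paralogues, and MDM2-binding or reference members. P-values over all times measure the spread between the line means. At single times they rest on a spread pooled over lines and times. Within a line they rest on the spread among times, pooled over the 4 lines. Tests of a response differing between times or between lines rest on what a model with line and time leaves over. The test of DMSO levels between lines takes the times of a line as replicates.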

Additional observations from a re-analysis of the deposited data

Results flagged for a closer look

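Responses that differed between times by the contrast of 24 h with 2 h were RPL29 (-0.948 log2), RPL36A (-0.823 log2) and RPS7 (-0.615 log2), each more negative at 24 h. In none of the 31 sets of 4 lines tested was 1 line far from the other 3 by Dixon's test (critical value 0.829).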

How the results depend on the processing

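Counts of members called moved by over 1.5 times as follows. Shares of all genes under the alternatives were computed only for the counts over all times. For the other counts, whether members moved more than all genes cannot be told. Without background correction they were 14 over all times (29.1% of all genes), 26 at 1 or more times and 1 between lines. They were also 6 for 24 h against 2 h, and 3 for DMSO at 24 h against 2 h. With the series matrix values they were 15 (29.2% of all genes), 31, 2, 8 and 4 in the same order, and 29 single probes. With the mean of all detected probes they were 23 at 1 or more times and 5 for 24 h against 2 h. With probes detected on all 40 arrays they were 5 for 24 h against 2 h and 3 for the DMSO contrast, which was 3 with an offset of 50, 3 with no detection filter and 0 with median scaling. In 1 line or more (13 members in the main fit) median scaling gave 6, and leaving out the 24 h arrays gave 5. With no replicate block, the pairing by line and time removed, they were 0 over all times and 0 at 1 or more times. Leaving out 1 line gave 4 to 7 over all times and 8 to 13 at 1 or more times. It gave 6 to 10 in 1 line or more, and 1 to 3 for 24 h against 2 h. For the DMSO contrast it gave 0 to 1, and for single probes 11 to 17. With the mean of all detected probes RPL13 reversed to -0.0318 and RPS26 to -0.357, as their probes moved apart, and RPS15 (-0.072), RPS27 (0.026), RPS29 (0.15) and RPL36AL (0.0025), which passed in neither fit, changed sign as well. Of 473 values of named genes under 14 alternatives, 410 kept direction and side of the threshold, 37 lost the call, 17 gained it, and 9 changed sign, 7 of which were called in neither fit. RPL36A, RPL29, RPS7 and RPS21 kept their call in 12 of 13 alternatives, all but the unpaired one. For the other moved counts the cause was not tested. Signal near background limits RPL10L, and 4 lines limit every interval.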
